A study of Mus musculus with 14 samples.

Results

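Cells in endothelial-to-haematopoietic transition (EHT cells) were compared with haemogenic endothelial (HE) cells, both taken from the aorta of E11 mouse embryos. The cells were chosen by the population, stage and p number written in their names in the deposited table (p13 for EHT cells, p25 for HE cells; cells that share a p number are called a set), and not by any measured value. This gave 46 EHT cells and 46 HE cells, 92 of the 1121 single cells of the series, of which 575 were E11 and 546 were E10 cells. The study sequenced single cells and whole clusters of the embryonic aorta by CEL-Seq, a method that tags each transcript molecule at its 3′ end, to follow endothelial cells as they become blood. Both populations came from ICR embryos at E11 (>40 somite pairs), with the genotype written as Gfi+/tomato/ Gfi1b+/GFP in the labels, so that fluorescent reporters of Gfi1 and Gfi1b could be used in the sort. The cells came from dissected and digested aorta-gonad-mesonephros (AGM) tissue. The paper states that tissue was pooled for other sorts, and does not say so for this one. EHT cells were sorted as Cdh5+ Gfi1+ Gfi1b- c-kit+ and HE cells as Cdh5+ Gfi1+ Gfi1b- c-kit-. Each population is 1 sample of 1 set, so population and set cannot be told apart, and there are no replicates. Every cell held 5000 transcripts after the authors' down-sampling, so each level is a share of a fixed total.

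During EHT, flat endothelial cells in the wall of the aorta round up, leave the endothelial layer and join intra-aortic haematopoietic clusters (IAHCs), which hold the precursors of haematopoietic stem cells (pre-HSCs). The transcription factor Runx1 is required for this step, and its targets Gfi1 and Gfi1b repress endothelial genes. The receptor c-kit, encoded by Kit, binds stem cell factor and appears on the cells as they change.

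The main difference was a loss. Among genes with enough transcripts to compare, 262 were at least 2-fold lower in EHT cells than in HE cells and 129 were at least 2-fold higher. The genes that fell included those of arterial identity, Notch signalling, endothelial junctions, growth factor receptors, flow response and the vascular matrix, with Fbln5, Vegfa, Cav1, Emcn and Eln among the most strongly reduced. The genes that were higher included regulators of blood cells (Myb, Mycn, Runx1), the leukocyte actin regulator Coro1a, the methyltransferase Dnmt3b, DNA replication genes and genes of ribosome assembly. Of the 46 EHT cells, 8 still had endothelial transcript levels within the HE range. Transcripts of at least 4 of 9 macrophage genes were found in 3 EHT cells, which are called the cells with macrophage genes. Without these cells, 111 of the 129 higher genes were still past 2-fold and 18 were not.

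The table lists 19424 genes, of which 12363 had a transcript in the 92 cells. Genes with at least 46 transcripts over the 92 cells (0.5 per cell) were compared; 2015 passed, and they held 70.4% of all transcripts. For each gene the transcripts were summed over the cells of a group and divided by the number of cells, and the ratio of these means is given as log2 of EHT over HE. The 129 higher genes were 6.40% of those compared, and the 262 lower genes were 13.0%. The median log2 ratio over the 2015 genes was -0.01, with quartiles at -0.52 and 0.38. Intervals given in brackets after a log2 ratio or a share of cells are exact 95% intervals that cover counting error within 1 sample only, not differences between embryos or sorts. The whole interval lay past 2-fold for 23 of the higher genes and 82 of the lower genes. Transcripts were found in at least 12 EHT cells for 124 of the 129 higher genes, and in at least 12 HE cells for all 262 lower genes. EHT cells had transcripts from 1912 to 2579 genes, with a median of 2353.5, and HE cells from 2269 to 2589 genes, with a median of 2427.5. The EHT range of genes found per cell therefore covered most of the HE range and reached lower.

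The genes used for the sort check the labels and are not findings. Kit had 0 to 6 transcripts in an EHT cell, with a median of 1, and 0 or 1 in a HE cell, with a median of 0. The sums were 76 and 2 transcripts, a log2 ratio of 5.25 (3.35 to 8.32). Cdh5, the adhesion molecule of endothelial junctions, had 0 to 15 transcripts per EHT cell (median 3) and 2 to 20 per HE cell (median 8), so the 2 ranges overlapped. It had transcripts in 40 EHT cells and in all 46 HE cells. Gfi1 was sorted as positive in both groups, yet its sums were 67 and 15 transcripts, and it was found in 30 EHT cells and 9 HE cells. Gfi1b and the leukocyte antigen Ptprc (CD45) each had 7 transcripts in EHT cells and 0 in HE cells; 0 of 46 cells, read as up to 3, allows up to 6.52% of cells with a transcript found, which does not limit the share of cells that express the gene. Over 8 endothelial markers, EHT cells held 635 transcripts in 44 cells and HE cells held 1545 in 46 cells, led in both by Cdh5. Over 8 haematopoietic markers, EHT cells held 536 transcripts in 46 cells and HE cells held 91 in 23 cells, led in both by the receptor Gpr56, and Myb and Ptprc were at 0 in HE cells. The endothelial markers include Cdh5, and the haematopoietic markers include Kit, Gfi1 and Ptprc, so these sums are not independent of the sort. With that limit, both labels fitted their markers, and endothelial transcripts were still present in most EHT cells.

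**Figure D1:**
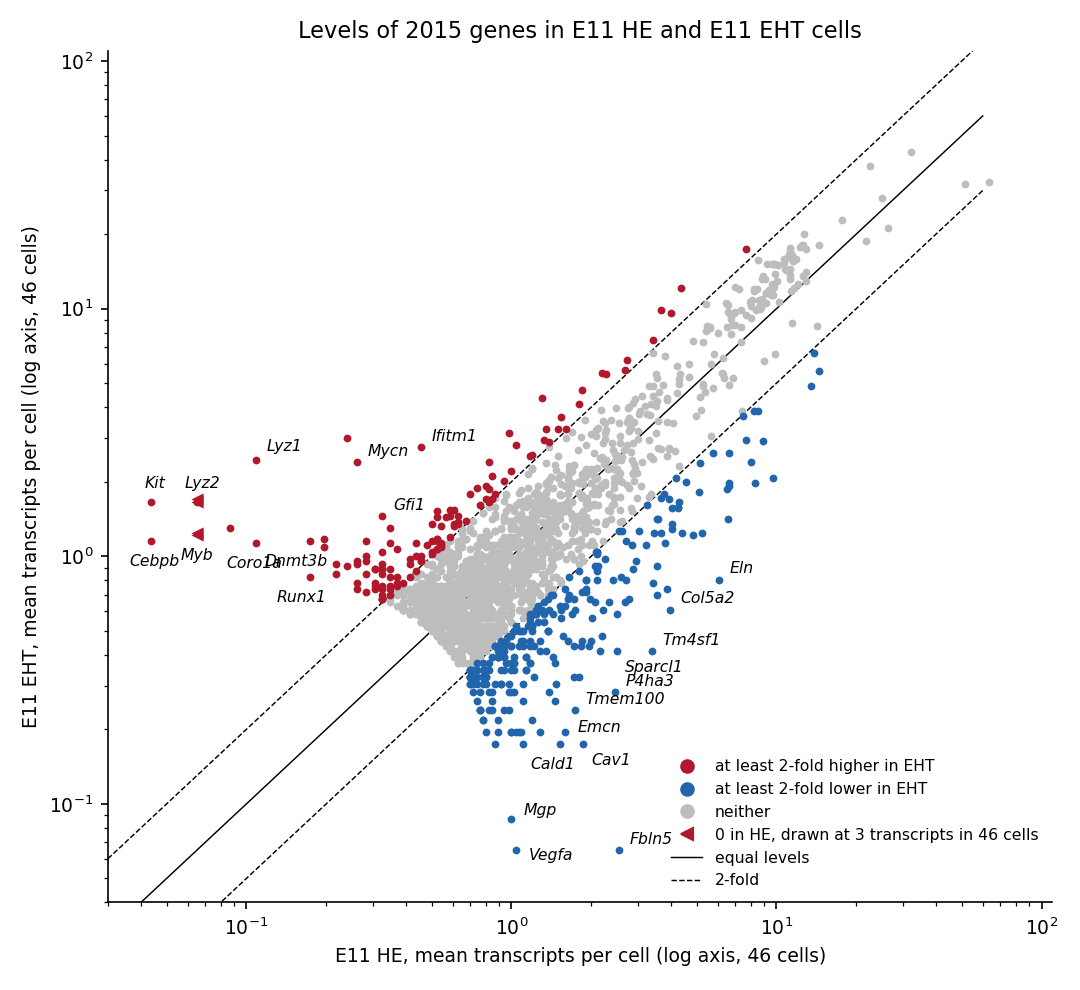
Mean transcripts per cell in HE cells (x axis) and EHT cells (y axis), both on log axes, one point for each of the 2015 compared genes, with lines at equal levels and at 2-fold. The 262 lower genes lie under the lower dashed line and the 129 higher genes over the upper one, with the 4 genes at 0 in HE cells (Ctss, Cxcl2, Lgals3 and Myb) drawn at 3 transcripts in 46 cells.

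Arterial and Notch genes were reduced together. Of 18 compared, 16 were at least 2-fold lower, 0 were higher, and the median log2 ratio was -1.78. Summed over the list, EHT cells had 1 to 74 transcripts per cell, with a median of 9, and HE cells had 29 to 105, with a median of 53. The ranges overlapped, but 37 of the 46 EHT cells lay below the lowest HE cell. Gja5, which encodes the arterial gap junction protein connexin 40, had 0 to 24 transcripts per EHT cell with a median of 0.5, and 1 to 34 per HE cell with a median of 7.5. It was found in every HE cell and in 23 EHT cells. Sox17, an arterial transcription factor, had a log2 ratio of -2.12 (-2.69 to -1.59). The Notch ligand Jag1 was at -2.04 (-2.66 to -1.45), and the vasoconstrictor peptide gene Edn1 was at -2.09 (-2.75 to -1.48). The Notch targets Hey1 and Hey2 had log2 ratios of -2.02 and -1.98, beside -1.87 for the ligand Dll4 and -1.90 for the receptor Notch4. Ligand, receptor and target genes of the Notch pathway were therefore all lower in EHT cells.

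Genes of endothelial identity and junctions showed a smaller loss that reached most members. Of 22 compared, 18 were at least 2-fold lower (the sort gene Cdh5 among them), 0 were higher, and the median log2 ratio was -1.21. The list summed to 1 to 104 transcripts per EHT cell (median 32.5) and 60 to 152 per HE cell (median 103), and 35 EHT cells lay below the lowest HE cell. Emcn, a sialomucin of the endothelial surface, had the lowest ratio of the list, -3.02 (-4.21 to -2.02), with 9 transcripts in EHT cells and 73 in HE cells. Eng, a co-receptor for TGF-beta family ligands, was at -1.87 (-2.52 to -1.25), and Plvap, a component of endothelial diaphragms, at -1.79 (-2.15 to -1.44). The clotting factor carrier Vwf was at -1.61, the adhesion molecule Pecam1 at -1.19 and the tight junction gene Cldn5 at -1.01 (-0.91, not past 2-fold, without the 3 cells with macrophage genes). The junction genes Pecam1 and Cldn5 thus lay close to the 2-fold limit, well above Emcn.

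Receptors and ligands of vascular growth factors were also lower. In the VEGF and Tie list, 7 of 9 genes were at least 2-fold lower, 0 were higher, and the median log2 ratio was -1.48. Of the EHT cells, 38 lay below the lowest HE cell for the sum of this list, which had a median of 8 transcripts per EHT cell and 33.5 per HE cell. Vegfa itself, the main ligand, had 3 transcripts in EHT cells and 48 in HE cells, a log2 ratio of -4.00 (-6.33 to -2.37). No EHT cell held more than 1 Vegfa transcript. The VEGF receptor Kdr was at -2.04 (-3.20 to -1.01), the co-receptor Nrp1 at -1.74 (-2.09 to -1.40), and the angiopoietin receptor Tek at -1.44 (-1.85 to -1.04). Epas1, a hypoxia-inducible transcription factor, had a median of 0.5 transcripts per EHT cell and 6 per HE cell, and a log2 ratio of -2.22 (-2.63 to -1.83). Both sides of the signal, the ligand and its receptors, were lower in EHT cells.

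The BMP and TGF-beta list had 9 of 10 genes at least 2-fold lower and a median log2 ratio of -1.71. Its sum had a median of 7 transcripts per EHT cell and 20 per HE cell, and only 8 EHT cells lay below the lowest HE cell, so overlap was wide. Id2, an inhibitor of helix-loop-helix factors, was at -2.46 (-3.60 to -1.47), the matrix latency protein Ltbp4 at -2.35 (-2.94 to -1.80) and the receptor Acvrl1 at -2.03 (-3.13 to -1.06). Genes that respond to blood flow had 4 of 5 members at least 2-fold lower, with a median of -1.74. The flow-induced factors Klf4 and Klf2 were at -2.42 and -1.74, and the nitric oxide synthase Nos3 was at -1.55. Of 4 caveola genes, 3 were at least 2-fold lower, with a median of -1.22. Cav1, the coat protein of caveolae, had 86 transcripts in 29 HE cells and 8 in 4 EHT cells, a log2 ratio of -3.43 (-4.68 to -2.38). The other 3 members, Ptrf, Ehd4 and Prkcdbp, were at -1.39, -1.05 (-0.91 when cells were thinned to 3000 transcripts) and -0.92, so Cav1 stood apart from the rest of its list.

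Endothelial transcription factors were lower as a group: 13 of 19 were at least 2-fold lower, 0 were higher, and the median was -1.74. Their sum had a mean of 15.4 transcripts per EHT cell and 43.8 per HE cell, and 24 EHT cells lay below the lowest HE cell. The 4 with the lowest ratios were Foxc2 at -2.47, Nfib at -2.40, Gata6 at -2.35 and Epas1 at -2.22. Fli1 and Tcf4 were not past 2-fold, with log2 ratios of -0.56 and 0.12. The loss therefore did not reach every factor of the list.

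Vascular matrix genes held the strongest single loss with all cells kept, that of Fbln5. Without the 3 highest and 3 lowest cells of each gene, Fbln5 was at -4.77 and the caveola gene Cav1 at -5.93. Of 24 extracellular matrix genes, 20 were at least 2-fold lower, 0 were higher, and the median log2 ratio was -1.85. Their sum ran from 2 to 99 transcripts per EHT cell (median 30) and from 44 to 181 per HE cell (median 91), with 33 EHT cells below the lowest HE cell. Fbln5, which binds elastic fibres, had 0 or 1 transcripts in an EHT cell and 0 to 14 in a HE cell, with medians of 0 and 1. Its 117 HE transcripts came from 27 cells, against 3 transcripts in EHT cells, a log2 ratio of -5.29 (-7.58 to -3.70). Eln, which encodes elastin, had a median of 5 and a highest value of 21 transcripts per HE cell, against 0 and 8 in EHT cells. It was found in 39 HE cells and 12 EHT cells, and its log2 ratio was -2.92 (-3.46 to -2.42). The mineralisation inhibitor Mgp was at -3.52 (-5.46 to -2.07) and the fibrillar collagen Col5a2 at -2.71 (-3.34 to -2.13). The paper describes Mgp as a gene of non-HE cells that is absent from HE cells, whereas here at least 12 HE cells had a transcript. Elastin and its binding protein were therefore both reduced, and in neither gene did any EHT cell reach the highest HE level. Of 6 mesenchymal markers, EHT cells held 17 transcripts in 8 cells and HE cells 66 in 26 cells, led by Cxcl12 with 7 and 25; Pdgfrb was at 0 in both, and Col1a1 in HE cells. Their part in the matrix values was not tested.

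The other 8 of the 15 genes with the smallest ratios came mostly from outside these lists. Cald1, which encodes the actin-binding protein caldesmon, was at -3.13 (-4.40 to -2.07). The collagen prolyl hydroxylase subunit P4ha3 was at -3.12 (-4.07 to -2.29) and the tetraspanin-like gene Tm4sf1 at -3.04 (-3.81 to -2.35). Tmem100, a gene known from arterial endothelium, was at -2.86, the scavenger receptor Stab1, listed as a macrophage marker, at -2.71, the water channel Aqp1 at -2.67 and the Wnt modulator Dkk2 at -2.48. Sparcl1, a secreted protein of the matrix list, was at -2.60 (-3.38 to -1.89). All these genes had transcripts in at least 12 HE cells. Without the 3 highest and 3 lowest cells of each gene, Tmem100 was at -5.61, Sparcl1 at -4.92 and P4ha3 at -4.91.

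**Figure D2:**
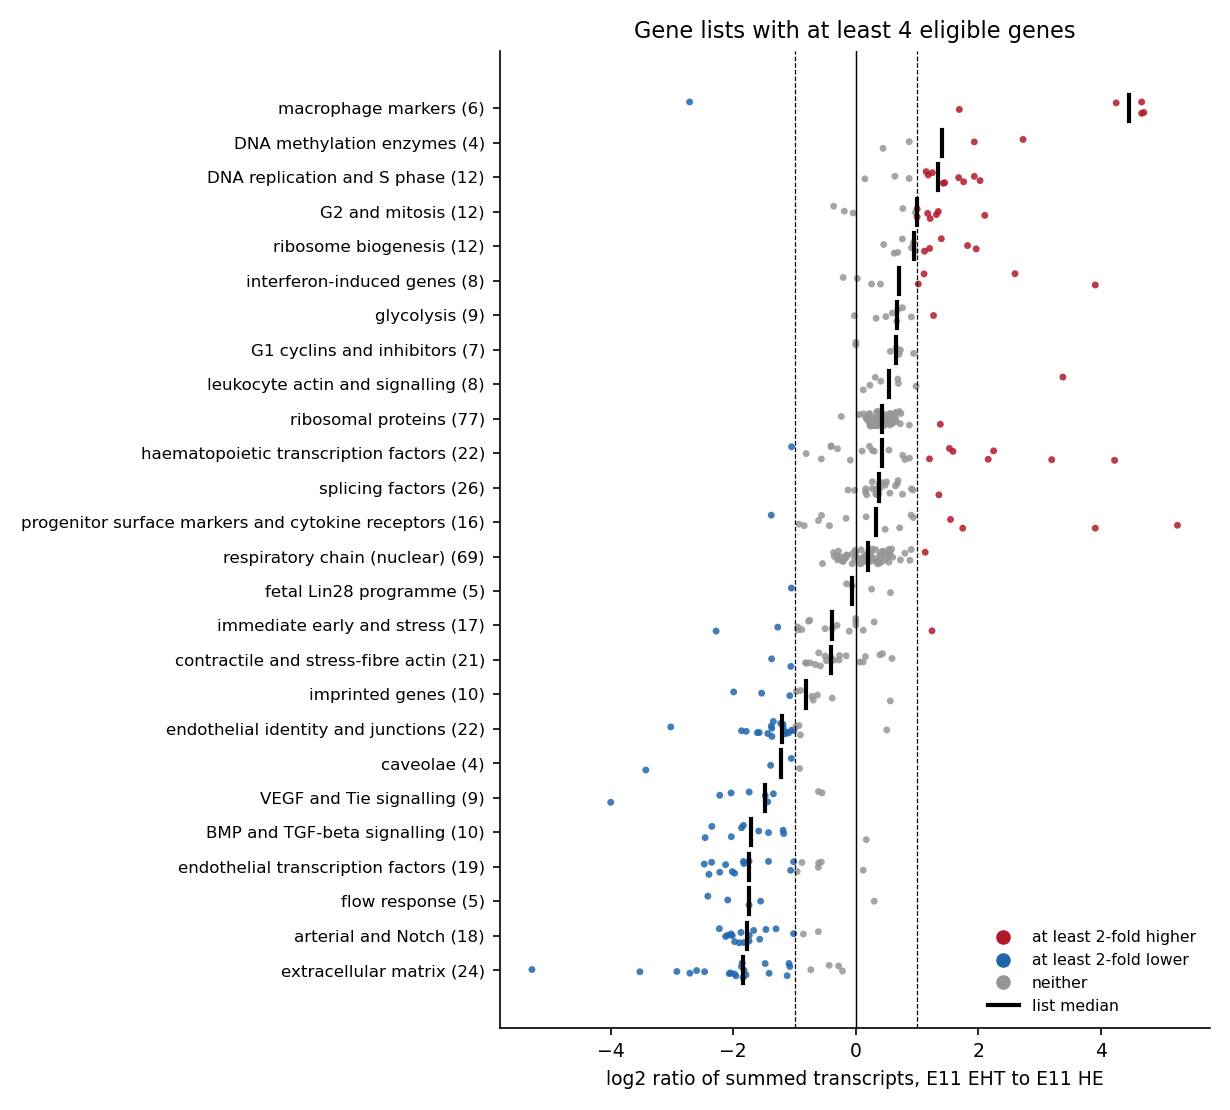
Log2 ratio of EHT to HE means per cell (x axis) for each compared gene of the lists with at least 4 such genes, with a black bar at the median of each list and dashed lines at 2-fold. The arterial and Notch list has a median of -1.78 and the DNA replication and S phase list one of 1.34, beside -0.01 for all 2015 genes.

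Cytoskeletal genes did not move as 1 block. Among 21 genes of contractile and stress-fibre actin, 2 were at least 2-fold lower, 0 were higher, and the median log2 ratio was -0.40. The number lower was close to the share of all compared genes, 13.0%. The 2 lower genes were the membrane-linked actin regulator Marcks, at -1.37 (-1.78 to -0.99), and the intermediate filament gene Vim, at -1.06 (-1.26 to -0.86), or -0.98 with ribosomal protein transcripts left out of the totals. Cytoplasmic actins were close to equal, with log2 ratios of 0.16 for Actb and 0.06 for Actg1. Of the 8 leukocyte actin and signalling genes, Coro1a was higher by at least 2-fold and the median was 0.55. Coro1a, an actin regulator of blood cells, had 0 to 6 transcripts per EHT cell (median 1) and 0 to 2 per HE cell (median 0), with a log2 ratio of 3.38 (2.06 to 5.06). It was found in 29 EHT cells and 4 HE cells, and its ratio was 5.25 without its 3 highest and 3 lowest cells. The 2 integrins compared went opposite ways: Itga4, whose product binds Vcam1 and fibronectin, was at 1.87 (0.93 to 2.93), and the common beta chain Itgb1 was at -1.02 (-1.39 to -0.65), or -0.98 without the 3 cells with macrophage genes.

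In the blood programme, a few genes were strongly higher in EHT cells. Of 22 haematopoietic transcription factors, 7 were at least 2-fold higher (the sort gene Gfi1 among them), 1 was lower, and the median log2 ratio was 0.42. Their summed level overlapped almost fully, with a median of 28 transcripts per EHT cell and 21 per HE cell. Myb, required for definitive blood formation, had 0 to 6 transcripts per EHT cell with a median of 0.5, and 0 in every HE cell. Its 56 transcripts came from 23 EHT cells, at least 18.7-fold higher when the HE sum is set to 3 transcripts over the group. Mycn, a growth-promoting factor of the Myc family, had 0 to 9 transcripts per EHT cell (median 2) and 0 to 2 per HE cell (median 0). Its log2 ratio was 3.20 (2.33 to 4.19), and it was found in 34 EHT cells, more than any of Myb, Runx1 or Gfi1. Runx1 was found in 25 EHT cells and 4 HE cells; its log2 ratio of 2.25 was 3.81 when cells were thinned to 3000 transcripts and 4.81 without its 3 highest and 3 lowest cells. Hlf and Ikzf2, factors known from haematopoietic stem and progenitor cells, were at 1.58 and 1.53, and Etv6, needed by adult stem cells, had 46 transcripts in EHT cells and 20 in HE cells. Lmo2, an adaptor of the endothelial and blood factor complex, was the 1 gene of the list that fell, at -1.05, with 58 transcripts in EHT cells and 120 in HE cells; without the 3 cells with macrophage genes it was at -0.95 and no longer past 2-fold. Sfpi1, which encodes PU.1, had too few transcripts to be compared with the rest; it had 39 in 22 EHT cells and 1 in HE cells.

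Surface genes of progenitors were mixed. Of 16 compared, 4 were at least 2-fold higher (the sort gene Kit among them), 1 was lower, and the median log2 ratio was 0.32, which went to -0.11 without the 3 cells with macrophage genes. Gpr56, an adhesion receptor, had 0 to 13 transcripts per EHT cell (median 4) and 0 to 6 per HE cell (median 0), found in 43 and 22 cells. Its log2 ratio was 1.74 (1.32 to 2.19). Cd47, which inhibits engulfment by macrophages, was at 1.54 (0.86 to 2.28). Cd34, shared by endothelium and progenitors, was the lower gene, at -1.38, and Procr, the protein C receptor, was at -0.16. Among 8 interferon-induced genes, 4 were at least 2-fold higher and the median was 0.71, but only 2 were higher without those cells, and the median was then 0.10. Ifitm1, a membrane protein of antiviral defence, was 1 of these 2, with 0 to 12 transcripts per EHT cell (median 2), 0 to 4 per HE cell (median 0) and a log2 ratio of 2.60 (1.92 to 3.34). Lgals9, a galectin, was at 2.58 (1.55 to 3.79) and the actin-severing gene Gsn at 2.47 (1.44 to 3.68).

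Genes of DNA replication and S phase were higher as a group. Of 12 compared, 9 were at least 2-fold higher, 0 were lower, and the median log2 ratio was 1.34. Their sum ran from 3 to 73 transcripts per EHT cell, with a median of 16, and from 1 to 44 per HE cell, with a median of 6. The ranges overlapped, and 9 EHT cells lay above the highest HE cell. The replication-linked gene 2810417H13Rik (also named Pclaf) was at 2.03 (1.13 to 3.03), the methylation maintenance factor Uhrf1 at 1.93 (0.95 to 3.04), and the nucleotide hydrolase Dut at 1.68 (0.82 to 2.62). The helicase subunit Mcm7 had 44 transcripts in 30 EHT cells and 13 in 11 HE cells. Of 12 genes of G2 and mitosis, 7 were at least 2-fold higher, 0 were lower, and the median was 1.00. Their sum had a median of 28.5 transcripts per EHT cell and 17 per HE cell, but the highest cell of all was a HE cell, with 128. Top2a, the topoisomerase that untangles chromosomes, was at 2.10 (1.09 to 3.26), Hmgb2, a chromatin protein, at 1.31, and the mitotic kinase Cdk1 at 1.21. Stmn1, a microtubule regulator, had a median of 4.5 transcripts per EHT cell and 1 per HE cell. Of 7 genes of G1 cyclins and inhibitors, 0 were past 2-fold, and their median was 0.66.

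The level of the replication genes varied between EHT cells, and none was without them. A sum of at least 20 transcripts of the S phase list, a value set after the sums were seen, was reached by 20 EHT cells (43.5%, exact 95% interval 28.9 to 58.9) and 4 HE cells (8.70%, 2.42 to 20.8). The same sum was reached by 9 of 30 non-haemogenic endothelial (non-HE) cells, 45 of 62 pre-HSCs and 154 of 201 IAHC cells of E11. A sum of at least 50 transcripts of the mitosis list, also set afterwards, was reached by 17 EHT cells (37.0%, 23.2 to 52.5) and 4 HE cells (8.70%). For non-HE cells it was 10 of 30, for pre-HSCs 27 of 62 and for IAHC cells 115 of 201. Of the 30 non-HE cells, 19 are named late E11, as the HE and EHT cells are, and 11 are of another set named E11.5. The non-HE, HE and EHT cells are all from ICR embryos, whereas the pre-HSCs and IAHC cells are from C57BL/6 wild-type embryos, so strain differs with those 2 groups.

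The DNA methyltransferases differed from each other. Dnmt3b, which sets new methylation, had 0 to 4 transcripts per EHT cell (median 1) and 0 or 1 per HE cell (median 0), found in 32 and 8 cells, with a log2 ratio of 2.73 (1.65 to 4.01). Dnmt3a, the other enzyme of this kind, was at 0.44 (-0.10 to 1.00), and the maintenance enzyme Dnmt1 was at 0.87 (0.19 to 1.58). Of the 4 genes of this list, 2 (Dnmt3b and Uhrf1) were past 2-fold, and the median was 1.4.

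Growth genes had ratios above 0 in most members, but few were past 2-fold outside ribosome biogenesis. Of 12 genes of ribosome biogenesis, 5 were at least 2-fold higher, 0 were lower, and the median log2 ratio was 0.96. Their sum had a median of 35 transcripts per EHT cell and 19 per HE cell, and 18 EHT cells lay above the highest HE cell. The nucleolar helicase Ddx21 was at 1.96 (0.93 to 3.13), the pseudouridine synthase Dkc1 at 1.82 (0.91 to 2.84), and the box C/D protein genes Nop56 and Fbl at 1.4 and 1.2, with Nop56 at 0.89 when cells were thinned to 3000 transcripts. Ribosomal protein genes took 18.4% of transcripts in EHT cells and 13.5% in HE cells. Of 77 compared, only Rpl7l1 was past 2-fold, at 1.38, and the median was 0.43. Their sum ran from 259 to 1222 transcripts per EHT cell (median 955) and from 463 to 978 per HE cell (median 678.5), and 19 EHT cells (41.3%) lay above the highest HE cell. Because the total per cell is fixed, a larger ribosomal share leaves less for other genes; leaving ribosomal protein transcripts out of the totals moved every log2 ratio up by 0.08. Glycolysis genes had a median of 0.67, with 1 of 9 past 2-fold. Gapdh, the enzyme of the middle of the pathway, had 2 to 22 transcripts per EHT cell (median 9) and 1 to 13 per HE cell (median 4), with a log2 ratio of 1.27 (1.02 to 1.52). Of 26 splicing factors, only the core spliceosome gene Snrpd1 was past 2-fold, at 1.36, and the median was 0.38. Of 69 nuclear genes of the respiratory chain, only Ndufb7 was past 2-fold, at 1.13, and the median was 0.20. In these last 2 lists 24 of 26 and 48 of 69 ratios lay above 0, but few genes were past 2-fold.

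Promoters are shown for genes of these groups that held a searched motif, to place the letters beside the groups that moved together. Uhrf1, Mcm7 and Runx1 each have 2 promoters, and for each the first with the most matches is shown. The sequences are from RefSeq (GRCm38.p6), run from 250 bases before to 50 bases after each start, and are written 5′ to 3′ on the strand of the gene, with matches of the motif that a gene is shown for in capitals. Of the 2015 compared genes, 1637 (81.2%) matched an entry. The 32851 promoters belong to 27025 genes. A share of all promoters counts promoters, whereas shares for compared, higher and lower genes count matched genes. A gene counts once when any of its promoters held the letters, so the 2 kinds of share have unlike units. The 18 motifs were chosen after the ratios were seen and were searched on both strands: TTTCCCGC, TTTCGCGC, TTTGCCGC or TTTGGCGC for E2F factors, GTGGGAA for RBPJ, TGTGGTT for RUNX factors, TGTGGT or TGCGGT for a short RUNX form (the first lying within the longer one), CCGGAAGT for ETS factors, AGATAA for GATA factors, GGGTGTGG for KLF factors, CCAAT for the box of that name, GGGCGG for the GC box, CACGTG for the E-box, TGANTCA for AP-1 (any middle base), TATAAA for the box of that name, GGCGCC for SMAD factors, CCNNNNNNGG for a loose form of the SRF site (any 6 inner bases, whereas the site has A or T), TTTCNNTTTC for the interferon-stimulated element (ISRE), ACAATG for SOX factors, GTAAACA for FOX factors and GGAATG for TEAD factors. The E2F letters occurred in 2.26% of all 32851 promoters of the table and in 4.95% of the matched compared genes. They occurred in 15 of 108 matched higher genes (13.9%), in 4 of 197 matched lower genes (2.03%), and in 5 of the 9 S phase genes past 2-fold. The CCAAT box occurred in 37.4% of all promoters and 42.6% of those of compared genes, in 51.9% of the higher genes and 39.6% of the lower genes. The RBPJ letters, read by the Notch effector, occurred in 6.38% of all promoters and 6.11% of those of compared genes, in 4.63% of higher genes and in 10.2% of lower genes, but in only 1 of 12 matched lower genes of the arterial and Notch list, Hey2. The RUNX letters occurred in 5.27% of all promoters and 3.97% of those of compared genes, in 6.48% of higher genes and in 4.06% of lower genes. For the other motifs, the shares of all promoters, of those of compared genes, of higher genes and of lower genes were, in this order, 22.4%, 23.8%, 25.9% and 20.3% for the short RUNX form; 3.89%, 9.53%, 4.63% and 4.57% for ETS; 11.2%, 6.84%, 4.63% and 6.6% for GATA; 3.56%, 4.15%, 7.41% and 4.06% for KLF; 35.7%, 73.2%, 68.5% and 75.6% for the GC box; 7.15%, 13.4%, 12% and 10.7% for the E-box; 7.81%, 5.50%, 7.41% and 5.08% for AP-1; 13.6%, 9.96%, 14.8% and 8.63% for the TATA box; 11.9%, 28.7%, 25% and 27.4% for SMAD; 73.3%, 89.3%, 82.4% and 92.9% for the loose SRF form, which is too common to describe SRF sites; 3.44%, 4.09%, 6.48% and 5.58% for ISRE; 12.6%, 9.65%, 4.63% and 9.14% for SOX; 3.65%, 3.30%, 4.63% and 3.55% for FOX; 14.7%, 13.9%, 11.1% and 17.3% for TEAD. A match is a description of letters and not a bound site. The E2F promoters shown are those of 2810417H13Rik (Pclaf, chr9:65890073-65890372, plus strand), Uhrf1 (chr17:56304063-56304362, plus strand), Mcm7 (chr5:138171834-138172133, minus strand, with 2 matches) and Mcm3 (chr1:20820263-20820562, minus strand, with 2 matches). Hey2 (chr10:30842734-30843033, minus strand) is shown for 2 RBPJ matches, and Runx1 (chr16:92826025-92826324, minus strand) for 2 RUNX matches.
2810417H13Rik: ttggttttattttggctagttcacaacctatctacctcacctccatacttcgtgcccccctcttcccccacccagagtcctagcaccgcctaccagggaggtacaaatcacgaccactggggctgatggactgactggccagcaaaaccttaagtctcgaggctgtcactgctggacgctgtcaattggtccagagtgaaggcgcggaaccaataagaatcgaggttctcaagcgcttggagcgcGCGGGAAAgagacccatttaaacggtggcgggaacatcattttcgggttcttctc
Uhrf1: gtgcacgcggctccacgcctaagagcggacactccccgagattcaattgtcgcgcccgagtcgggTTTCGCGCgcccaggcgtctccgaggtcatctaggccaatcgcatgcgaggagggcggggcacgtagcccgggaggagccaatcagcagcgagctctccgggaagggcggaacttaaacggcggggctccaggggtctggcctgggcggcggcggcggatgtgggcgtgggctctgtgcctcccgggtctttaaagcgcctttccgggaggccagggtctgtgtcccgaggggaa
Mcm7: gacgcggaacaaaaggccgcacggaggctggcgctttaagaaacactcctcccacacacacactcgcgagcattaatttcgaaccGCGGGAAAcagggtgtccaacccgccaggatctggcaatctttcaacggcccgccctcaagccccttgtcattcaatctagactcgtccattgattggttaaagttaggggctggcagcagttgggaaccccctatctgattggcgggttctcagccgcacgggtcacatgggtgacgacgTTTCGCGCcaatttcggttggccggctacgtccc
Mcm3: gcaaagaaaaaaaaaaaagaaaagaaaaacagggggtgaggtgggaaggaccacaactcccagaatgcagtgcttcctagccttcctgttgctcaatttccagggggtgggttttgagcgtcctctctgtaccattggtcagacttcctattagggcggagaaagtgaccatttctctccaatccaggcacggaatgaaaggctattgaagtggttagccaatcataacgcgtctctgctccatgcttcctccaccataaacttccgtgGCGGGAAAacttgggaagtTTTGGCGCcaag
Hey2: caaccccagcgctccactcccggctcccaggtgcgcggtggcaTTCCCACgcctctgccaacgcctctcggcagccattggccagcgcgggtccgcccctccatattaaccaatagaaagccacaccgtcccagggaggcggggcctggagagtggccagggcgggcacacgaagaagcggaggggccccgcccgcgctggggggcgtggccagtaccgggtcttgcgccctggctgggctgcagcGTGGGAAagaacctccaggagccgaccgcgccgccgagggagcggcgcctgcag
Runx1: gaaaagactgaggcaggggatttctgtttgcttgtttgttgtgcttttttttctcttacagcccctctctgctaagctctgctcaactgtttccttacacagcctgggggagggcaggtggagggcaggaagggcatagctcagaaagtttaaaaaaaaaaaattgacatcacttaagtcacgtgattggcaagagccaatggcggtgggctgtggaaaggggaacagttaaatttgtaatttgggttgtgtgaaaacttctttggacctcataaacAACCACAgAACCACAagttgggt

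Single EHT cells differed widely in their endothelial and blood transcripts. An endothelial sum over 77 genes of the endothelial lists ran from 3 to 204 transcripts per EHT cell, with a median of 43.5, and from 96 to 279 per HE cell, with a median of 179. A haematopoietic sum over 85 genes of the blood lists, without the sort genes, ran from 20 to 78 per EHT cell, with a median of 44.5, and from 12 to 49 per HE cell, with a median of 31.5. The make-up of these sums was set after the values were seen, and 2 genes held by both were left out. Of the 46 EHT cells, 8 (17.4%, 7.82 to 31.4) were at or above the lowest HE endothelial sum, and 3 of them were at or above the HE median. At the other end, 21 EHT cells (45.7%, 30.9 to 61.0) lay above the highest HE haematopoietic sum. Of these, 2 were cells with macrophage genes and without sort gene transcripts, which held 78 and 59 haematopoietic transcripts and only 4 and 3 endothelial ones, so they set these ends of the ranges. A Kit transcript was found in 1 of the 8 endothelial-rich EHT cells and in 28 of the other 38. A Gfi1 transcript was found in 6 of the 8 and in 24 of the 38. Most of the 8 cells thus had no Kit transcript, although all were sorted as c-kit+. Of the 8 cells, 2 were past either cell cycle value (20 for S phase, 50 for mitosis), against 21 of the other 38.

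**Figure D3:**
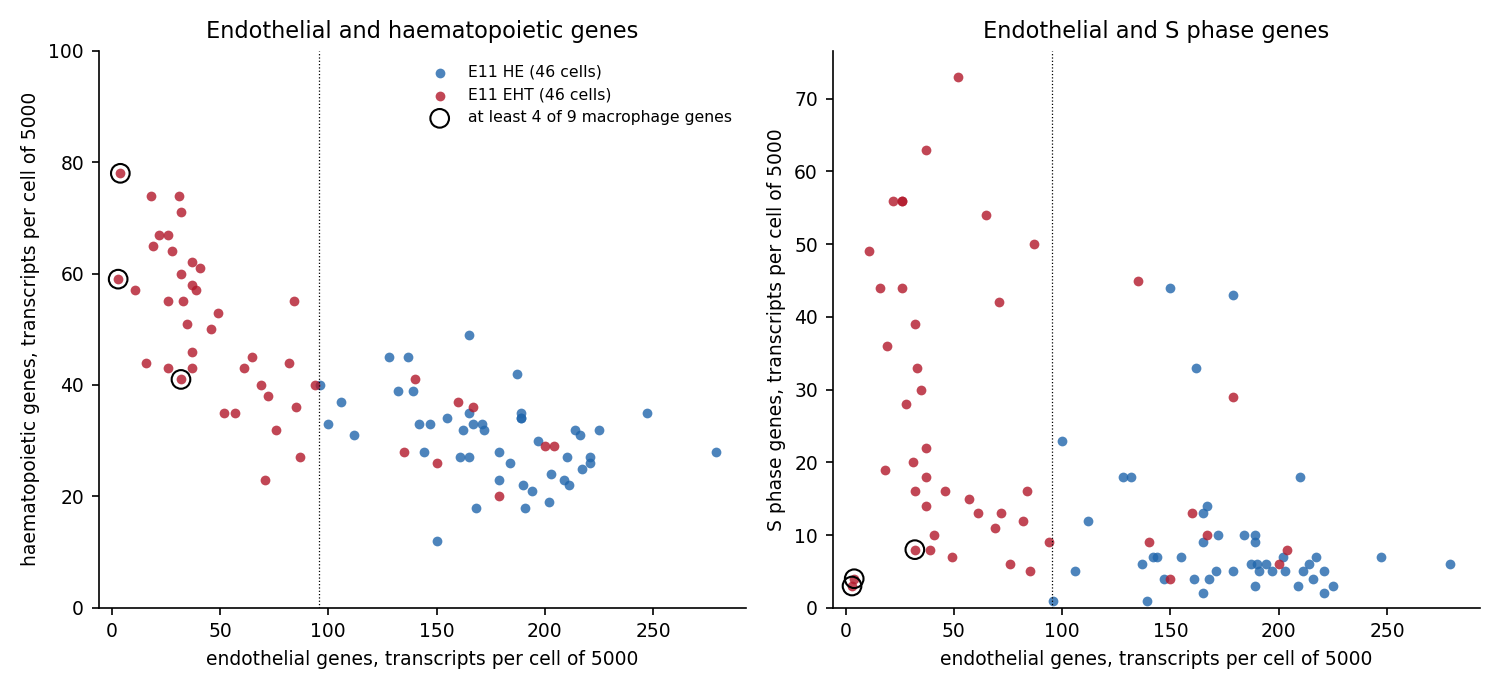
Endothelial sum (x axis) against the haematopoietic sum (left) and the S phase sum (right), in transcripts per cell of 5000, one point for each of the 46 EHT and 46 HE cells, with rings around the 3 cells with macrophage genes. HE cells lie at 96 or more endothelial transcripts, right of the dotted line, and EHT cells run from 3 to 204.

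Within EHT cells the 2 programmes ran opposite to each other. Over the 46 cells, which share 1 set and a fixed total of 5000 transcripts, the endothelial and haematopoietic sums had a Spearman correlation of -0.794 and a Pearson correlation of -0.722. Over the 46 HE cells the values were -0.459 and -0.375. The endothelial sum moved with the matrix sum over EHT cells (Spearman 0.891, Pearson 0.934), and less closely over HE cells (0.587 and 0.516). EHT cells low in endothelial transcripts were therefore also low in matrix transcripts. Between the endothelial sum and the ribosomal protein sum, the Spearman correlation was -0.506 over 46 EHT cells, against -0.552 over HE cells. It was -0.724 over the 43 EHT cells left without those that had transcripts of at least 4 of 9 macrophage genes. Between the endothelial and S phase sums it was -0.338 over 46 EHT cells, -0.563 over 43 and -0.233 over HE cells. These correlations describe cells of 1 sample and carry no test.

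Transcripts of 9 macrophage genes were found in 24 EHT cells and 4 HE cells. Most of those transcripts were in 3 EHT cells, which are given apart for that reason. A cell was counted when it held transcripts of at least 4 of 9 macrophage genes, which applied to 3 of 46 EHT cells (6.52%, 1.4 to 17.9) and 0 HE cells. No other EHT cell held more than 2 of the 9 genes, and no HE cell more than 1. Over the 9 genes, EHT cells held 177 transcripts, all but 51 of them in the 3 cells. The protease gene Ctss had 76 of the 177, and C1qa, Cx3cr1 and Mrc1 were at 0. HE cells held 4, led by Lyz2 with 3. In 1 of the 3 cells there were 56 transcripts of the 9 genes, with 42 of Ctss and 7 of the lysosomal gene Cd68. Another held 65, with 30 of Ctss, 24 of Lyz2 and 10 of Cd68. Both of these cells had 0 transcripts of Kit, Cdh5, Gfi1, Gfi1b and Ptprc, and they had the fewest genes found, 1949 and 1912. The last held 5 transcripts of the 9 genes, among them 2 of C1qb and 1 of C1qc, together with 1 transcript each of Kit, Gfi1 and Ptprc. The 3 cells were therefore not alike: 2 had macrophage transcripts without any of the sort genes, and 1 had few of either.

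Most of the higher genes did not rest on these cells. With 43 EHT cells left, 111 of the 129 higher genes and 227 of the 262 lower genes were still past 2-fold. The 18 higher genes that were not were Cdk9, Cenpf, Cstb, Ctsb, Ctss, Cxcl2, Eef1d, Fth1, Ftl1, H2-D1, H2-K1, H2-T23, Lgals3, Mfsd11, Slc3a2, Slfn5, Spp1 and Srgn. For 11 higher genes, over 50% of the EHT transcripts were in the 3 cells. The chemokine gene Cxcl2 had 56 of 57 there, Ctss 73 of 76 and the galectin gene Lgals3 74 of 78. Spp1, which encodes a secreted phosphoprotein, went from a log2 ratio of 3.65 to -0.36, and the interferon-induced gene Ly6e from 3.91 to 1.80. In contrast, the ratios of Mycn, Coro1a, Dnmt3b and Runx1 without these cells were 3.27, 3.36, 2.80 and 2.31, close to those with them. The lysozyme genes Lyz1 and Lyz2, which are similar in sequence so that reads may be shared between them, were lower without these cells but still past 2-fold, at 3.73 and 4.04. Cebpb, a myeloid transcription factor, had 28 of its 53 EHT transcripts in the 3 cells and a log2 ratio of 3.74 without them, against 4.73 with them. Of the 6 macrophage markers compared, 5 were at least 2-fold higher and 1 (Stab1) lower, with a median of 4.46. Without the 3 cells 4 could be compared, and their median was 1.12. Of these, 2 were higher by at least 2-fold, Stab1 was lower, and Lgals3, at 0.51, was neither. The list of myeloid granule and progenitor genes had 2 compared, Lyz1 and Srgn, both higher, and 1 without the 3 cells.

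**Figure D4:**
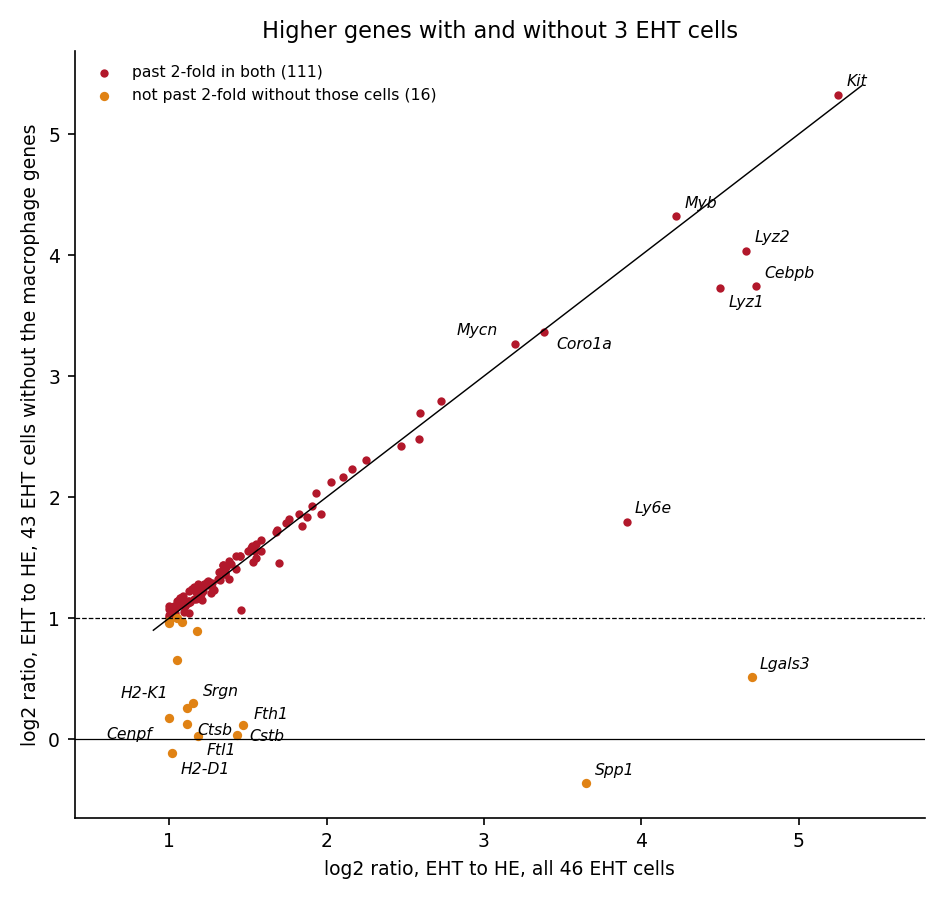
Log2 ratio of EHT to HE means per cell with all 46 EHT cells (x axis) and without the 3 cells with macrophage genes (y axis), one point per gene at least 2-fold higher with all cells; Ctss and Cxcl2, with too few transcripts without them, are not drawn. Spp1 goes from 3.65 to -0.36, whereas Mycn stays near the diagonal at 3.20 and 3.27.

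Levels in other E11 populations were set beside those of the 2 groups. The pre-HSCs and IAHC cells are from C57BL/6 wild-type embryos, whereas the HE and EHT cells are from ICR reporter embryos. They were also stained for c-kit inside the aorta, before dissection, unlike the HE and EHT cells. Gja5 had a mean of 5.60 transcripts per cell in 30 non-HE cells, 0.548 in 62 pre-HSCs (those named as type I) and 0.284 in 201 IAHC cells. Eln had means of 0.145 and 0.0697 in the last 2, so both genes were nearly absent from the cluster populations. Summed over the arterial and Notch list, the mean was 47.4 transcripts in non-HE cells, 55.8 in HE cells, 17.3 in EHT cells, 5.77 in pre-HSCs and 4.57 in IAHC cells. For the endothelial identity list the means were 86.9, 101, 42.1, 27.5 and 24.7 in the same order. The medians for the arterial and Notch list were 53 in HE cells, 9 in EHT cells and 3 in pre-HSCs. For the endothelial identity list they were 103, 32.5 and 25.5. EHT cells therefore lay between HE cells and pre-HSCs on both lists, and nearer to pre-HSCs. Population, strain and staining cannot be told apart in the step to pre-HSCs. Mycn was different, with the highest mean in EHT cells: it had a mean of 0.0667 in non-HE cells, 2.39 in EHT cells, 0.629 in pre-HSCs and 0.692 in IAHC cells. The sort gene Kit had 0.233, 1.65, 1.47 and 0.647 in the same order, and its counting intervals in EHT cells (1.30 to 2.07) and pre-HSCs (1.18 to 1.80) overlapped. Coro1a had a mean of 1.13 in EHT cells, 2.63 in pre-HSCs and 3.46 in IAHC cells, and Gpr56 had 4.47 in pre-HSCs and 5.27 in IAHC cells. The paper selected IAHC cells by their Gpr56 transcripts, so this selection may set the Gpr56 mean of IAHC cells. The mean of the ribosomal protein sum was 674 in non-HE cells, 675 in HE cells, 919 in EHT cells, 1173 in pre-HSCs and 1090 in IAHC cells.

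The same contrast at E10 came from embryos of the same strain and genotype with 28 to 32 somite pairs, as 191 EHT cells in 3 sets and 98 HE cells in 2. The names call 2 of the EHT sets late E10 and the other EHT set and both HE sets E10.5, so the written stage partly follows the population. The E10 cells held 3000 transcripts each and were scaled apart from the E11 cells, so levels cannot be set side by side and ratios were formed within each stage. The E10 table lists 0 of the 84 ribosomal protein names, so the E10 totals hold none of them. With the same limit of 0.5 transcripts per cell, 1260 genes were compared at E10; 71 (5.63%) were at least 2-fold higher and 94 (7.46%) at least 2-fold lower. Of 1202 genes compared at both stages, 66 were lower at both, which is 73.3% of the 90 lower at E11 and 70.2% of the 94 lower at E10. The number higher at both was 30, which is 28.3% of the 106 higher at E11 and 46.9% of the 64 higher at E10. No gene was past 2-fold in opposite directions. Gja5 had a log2 ratio of -3.55 at E10, Sox17 -2.81, Myb 6.29, Coro1a 2.82, Ifitm1 3.62 and Mycn 2.26, each past 2-fold in the direction seen at E11. The S phase list gave another picture: of 17 genes compared at E10, 0 were past 2-fold and the median log2 ratio was 0.29. Its genes took 0.840% of transcripts in E10 EHT cells and 0.660% in E10 HE cells. Of 16 G2 and mitosis genes at E10, 0 were past 2-fold and the median was -0.07. The E10 ratios for the arterial and Notch list (8 of 9 lower, median -1.95), the matrix list (11 of 14 lower, median -1.62) and ribosome biogenesis (6 of 13 higher, median 0.94) were close to those at E11. The difference between the stages was not tested, because each stage has 1 sample per population.

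**Figure D5:**
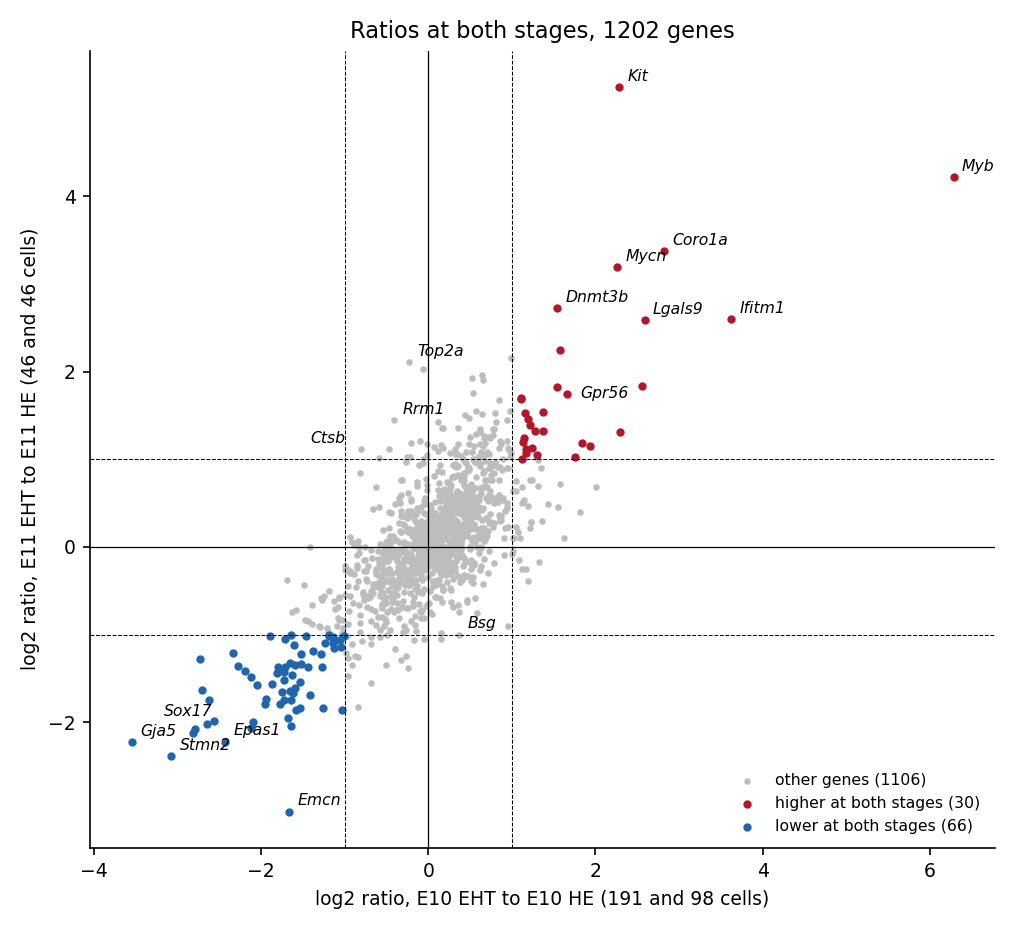
Log2 ratio of EHT to HE means per cell at E10 (x axis) and E11 (y axis), one point per gene compared at both stages, with lines at 2-fold. Of the 1202 genes, 66 are at least 2-fold lower at both stages and 30 at least 2-fold higher at both.

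The E11 ratios compare 1 set with 1 other, so differences between embryos and sorts cannot be told apart from those between populations. Genes with few transcripts, such as Runx1 with 38 and 8, have wide counting intervals.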

How the data were processed

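Values were read from the deposited single-cell tables, in which the authors give for each gene an estimated count of its transcripts in each cell (CEL-Seq, corrected by molecular tags), down-sampled to 5000 transcripts per cell at E11 and 3000 at E10, with 0.1 added to each value. The 0.1 was subtracted. BWA 0.6.2-r126 and build mm10 are named in the submitters' processing notes; the gene annotation is not given in the sources used here. Transcripts were summed over the cells of a group and divided by the number of cells. Exact 95% intervals were computed for ratios of sums (conditional binomial, Clopper-Pearson), means (Poisson) and shares of cells above 0 (Clopper-Pearson); a sum of 0 was set to 3 transcripts over the group and a share of 0 cells to 3 cells. With 1 sample per group no test was made. The ratio and interval code was tested on simulated data. Python 3.11.15, numpy 2.4.6, pandas 2.3.3, scipy 1.17.1 and matplotlib 3.10.9 were used.

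Genes were named by a rule: the 15 largest and the 15 smallest ratios among genes found in at least 12 cells of the higher group and past 2-fold also without the macrophage-gene cells; the sort genes; up to 4 genes per list with the largest ratios in either direction; and the 5 genes moved most by leaving out those cells. Other genes were named after their values were seen, to give a list's make-up. The members, and the 35 gene lists, were chosen with earlier results of these data known. Columns not used were 190 single cells at E11 and 257 at E10 (447 in all) and 109 whole clusters, 556 together. The alternatives tried changed depth, the limit on low counts, the fold, centring, the cells kept and the 0.1.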

Additional observations from a re-analysis of the deposited data

Results flagged for a closer look

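For 6 of the genes past 2-fold at E11, the log2 ratio of EHT to HE cells had the opposite sign at E10 in each of the 6 pairs formed from the 5 E10 sets. This criterion was set after the values were seen, and the difference between the stages was not tested. Bsg, which encodes basigin, had a log2 ratio of -1.00 at E11 and 0.37 at E10, with 0.02 to 0.97 over the 6 pairs. The median log2 ratio of genes compared was 0.12 at E10 and -0.01 at E11, so Bsg meets the criterion only when ratios are not centred, and without the 3 EHT cells with macrophage genes it was at -0.96. Top2a, the topoisomerase of dividing cells, was at 2.10 at E11 and -0.23 at E10 (-0.49 to -0.07). The lysosomal protease gene Ctsb was at 1.12 and -0.81 (-1.37 to -0.32), and the ferritin light chain gene Ftl1 at 1.18 and -0.20 (-0.34 to -0.10). The class I histocompatibility genes H2-D1 and H2-K1, which are similar in sequence so that reads may be shared between them, were at 1.02 and 1.11 at E11. At E10 they were at -0.59 (-0.74 to -0.47) and -0.47 (-0.56 to -0.30). Without the 3 EHT cells with macrophage genes, Ctsb, Ftl1, H2-D1 and H2-K1 had E11 log2 ratios of 0.12, 0.03, -0.11 and 0.26, so these 4 were no longer past 2-fold.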

How the results depend on the processing

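The numbers of genes at least 2-fold higher and lower were 129 and 262. They stayed within 1.5 times these values without the cells with at least 4 (or 3) macrophage genes (120 and 241), with ratios centred on the median gene (129 and 249), without the 3 highest and 3 lowest cells of each gene (163 and 324) and with the 0.1 left in (96 and 202). They did so too for 2 alternatives chosen after seeing the data: without EHT cells that had at least 50 transcripts of the 9 macrophage genes (121 and 254), and with ribosomal protein transcripts left out of the totals (154 and 219). They moved further when cells were thinned to 3000 transcripts (70 and 151, of 1070 genes compared), with a limit of 23 transcripts (331 and 578), with a limit of 92 (47 and 111), with no limit (1488 and 1662) and at 3-fold (33 and 95). These last alternatives change how many genes can be counted by their own construction. Of 119 results for single genes, 117 were within their counting interval when thinned (all but Ptprc, then at 0.74, and Runx1, from 2.25 to 3.81) and all 119 when centred. Of 90 of them past 2-fold, 7 were not when thinned (Ehd4, H2-K1, Itgb1, Nop56, Ptprc, Sox4 and Srgn) and 5 were not with ribosomal protein transcripts left out (Ehd4, Itgb1, Meg3, Sox4 and Vim). Without the macrophage-gene cells, 110 were, 5 moved and 2 reversed: H2-D1 to -0.11 and Spp1 to -0.36. Without the 3 highest and 3 lowest cells, 93 were, 21 moved and 1 reversed, H2-D1 to -0.05; the cause was not tested. No value could be given for Ctss and Cxcl2 in either of these, or for Gfi1b and Lgals3 in the last. Of 29 list medians, 28 were within their interval when thinned, when centred and without the macrophage-gene cells, and 27 with ribosomal protein transcripts left out. Without the 3 highest and 3 lowest cells 24 were and 5 moved, among them arterial and Notch from -1.78 to -2.18, extracellular matrix from -1.85 to -2.13, endothelial identity and junctions from -1.21 to -1.44 and G2 and mitosis from 1.00 to 1.38. Depth limits genes with few transcripts: a sum of 0 is read as 3 transcripts.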

Other observations

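Some gene groups lie outside the endothelial and blood programmes. Of 10 imprinted genes, many of which regulate fetal growth, 3 were at least 2-fold lower (2 without the 3 EHT cells with macrophage genes), 0 were higher, and the median log2 ratio was -0.81; at E10, 4 of 8 were lower. Their sum, led by H19 and Igf2, ran from 3 to 217 transcripts per EHT cell (median 78.5) and from 64 to 253 per HE cell (median 137.5), and 17 EHT cells lay below the lowest HE cell. The 3 genes were Mest at -1.99 (-2.44 to -1.57), the zinc finger gene Plagl1 at -1.54 (-2.03 to -1.07) and the long non-coding RNA Meg3 at -1.08 (-1.80 to -0.39). H19 had 1491 transcripts in EHT cells and 2922 in HE cells, a log2 ratio of -0.97 (-1.06 to -0.88). Of 17 immediate early and stress genes, 1 was at least 2-fold higher (the chaperone Hsp90aa1, at 1.24) and 2 were lower (Btg2, at -2.28, and Rhob, at -1.27), with a median of -0.39; without the 3 EHT cells 5 were lower and the median was -0.47. The numbers higher and lower with all cells were close to the shares of all compared genes, 6.40% and 13.0%. The immediate early genes Fos and Egr1 were at 0.00 in both cases. Of 5 genes of the fetal Lin28 programme, 1 was lower (Sox4, at -1.05, or -0.96 and not past 2-fold without the 3 EHT cells), and the median was -0.06. Stmn2, a microtubule regulator known from neurons and the 1 gene compared of the neural list, was at -2.39 (-2.96 to -1.85), with 34 transcripts in 11 EHT cells and 178 in 32 HE cells.

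Markers of other cell types were also counted. The 4 globin genes Hba-x, Hba-a1, Hbb-y and Hbb-bh1 held 3 transcripts in 2 EHT cells and 31 in 17 HE cells, led by Hbb-y with 2 and 17, and the erythroid genes Alas2 and Klf1 were at 0 in both groups. Of 4 epithelial markers, EHT cells held 3 transcripts and HE cells 0. The part of these transcripts in the results was not tested. The lists of erythroid and megakaryocyte, mesenchymal, epithelial, hepatocyte and metallothionein genes had 0 genes with enough transcripts to compare, and the table has 0 entries for mitochondrially encoded genes.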
